A study of Danio rerio with 6 samples.

Results

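Intraflagellar transport and ciliary base genes were taken as every gene whose symbol began with ift or bbs and a digit, tctn, b9d, nphp or cep and a digit, together with tmem216, tmem218 and tmem231. Upper and lower case were read alike, since tmem216 is written TMEM216 in the files. The rule found 65 of 32266 genes, which carried 62 different symbols because cep19, cep128 and bbs4 are each listed under more than 1 identifier. By their roles the members were 1 gene of the IFT-A complex, 11 of IFT-B, 7 of the BBSome, 2 BBS chaperonin genes, 11 transition zone genes, 9 centrosome genes that act on cilia, 13 genes of centriole assembly, 10 of subdistal appendages and linkage, and cep55l, whose human relative CEP55 acts at the midbody in cytokinesis. Roles were assigned by hand.

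A cilium grows from a centriole that has docked at the cell surface as a basal body. Particles that hold IFT-A and IFT-B travel outward along the axoneme with kinesin-2 and return with dynein-2. The BBSome, an adaptor that rides on these particles, carries membrane proteins. The transition zone between basal body and shaft is the gate of the cilium, and many cep genes serve the centrosome in every dividing cell, whether or not it bears a cilium. Most resting vertebrate cells can carry a primary cilium, leukocytes are known for lacking one, and spermatids build a flagellum.

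The fish were adult casper zebrafish of the genotype mitfa-BRAFV600E; p53-/-; mitfa-/-, injected as embryos with mitfa-MITF and mitfa-GFP, so that MITF returns to the mitfa lineage and tumors express GFP. Every sample shares this background, there was no fish without a tumor, and head and tail had been removed. The single cells came from liberase dissociation and from equal numbers of sorted GFP+ and GFP- cells (samples E and F), and the nuclei from Dounce homogenization and the same equal sort, with 3 fish pooled in 1 reaction and told apart by hashtags. Samples E and F are taken as separate samples because the labels list them so, and p-values from them measure the spread between these samples, which may be technical. Spot positions of Visium sections were not used here.

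Sample E had 1780 kept cells with a median of 16265 UMIs (unique molecular identifiers, counts of captured transcripts), sample F had 1002 with a median of 8879, and the nuclei library had 13380 kept nuclei with a median of 2160.5. Samples E and F shared no barcode, and 4 barcodes of E and 1 of F recurred among the nuclei. Clusters were named from marker lists, as tumor-like, macrophage-like and so on, with the members left out of the genes used for clustering. In the tumor-like clusters of cells 8 to 11 of the 12 genes of the tumor list were raised at least 2-fold over the median cluster. In the macrophage-like cluster all 11 genes of its list were. These lists gave the names, so the counts are no separate support for them. Fewer transcripts per cell and fewer transcribing cells of a class cannot be told apart in such sums. Levels are given as UMIs per 1000000 UMIs of a class in a sample (CPM), with 95% intervals (exact Poisson), which take in counting error and nothing else. Differences come from edgeR's quasi-likelihood test with Benjamini-Hochberg adjustment over all genes tested, and from each log2 difference the median over all tested genes of that comparison has been subtracted.

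The members held 13754 of 47453027 UMIs of the cells and 81150 of 72799979 UMIs of the nuclei with 1 hashtag. The second listing of cep19 and the second listing of bbs4 had no UMI in the cells, and had 1 and 3 UMIs in the nuclei. A single gene led each kind of library: cep350, a microtubule anchoring factor of the centrosome, took 13.2% of the members' UMIs in cells, and cep76, which restrains centriole duplication in human cells, took 18.3% in nuclei. Of the members, 47 passed the filter on low counts in the cell comparisons and 33 in the nuclear ones, with 26 in both.

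The share of a gene's UMIs that lay in the germ line differed widely between members. Germ-like cells, set apart below, held 2.06% of all UMIs of the cells. Of the 986 cell UMIs of ift27, a small GTPase of IFT-B, 12.3% lay in germ-like cells, and of the 673 of ift46 48.6%. Of the 496 UMIs of ift74, which forms the tubulin-binding module of IFT-B with ift81, 8.87% lay there. In the BBSome, bbs2 had 742 UMIs with 2.02% in germ-like cells, while bbs10 and bbs12, relatives of chaperonins that assemble the BBSome, had 22 and 27 UMIs with 63.6% and 48.1%. The genes with the most UMIs outside IFT were cep350, cep170aa and cep85l, with 1820, 1427 and 1034 UMIs. Of these, 4.29%, 1.54% and 2.71% lay in germ-like cells, and only the share of cep170aa was below 2.06%. cep41, a factor of tubulin glutamylation in cilia, had 84.8% of 46 UMIs in germ-like cells.

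Among the single cells, germ-like cells had the highest summed level. A cell was set apart as germ-like if it held at least 5 UMIs from at least 3 genes of a male germ cell list, which contains no member but does contain tektins and other flagellar genes. There were 68 such cells, 4 in E and 64 in F. They made up 2.44% of the cells and 2.06% of the UMIs, and carried 18.6% of the members' UMIs. The summed level was 6006 CPM (5295 to 6785) in germ-like cells of E and 2473 CPM (2373 to 2576) in those of F, against a mean over the somatic classes of 229 CPM in E and 268 CPM in F. Both germ-like sums were above the highest somatic class, the BRAF-positive cells of the dividing cluster, which had 394 CPM in E and 560 CPM in F. Single cells overlapped, at 0 to 16301 CPM in germ-like cells of F, against up to 2894 CPM in lymphocyte-like cells of F.

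**Figure D1:**
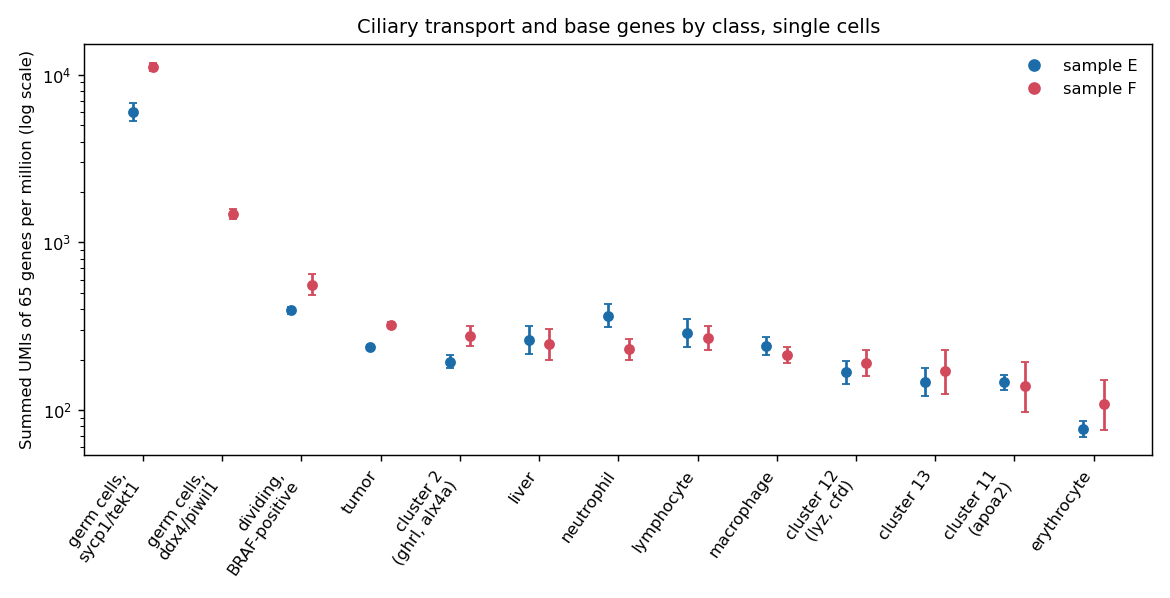
Summed CPM of the 65 genes (log scale) by class of single cells, 1 point per sample with its 95% exact Poisson interval; class names stand for marker-based, -like classes. The sycp1/tekt1 germ-like cells lie at 6006 (E) and 11181 CPM (F) and the ddx4/piwil1 group at 1480 CPM (F), while no somatic class exceeds 560 CPM.

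The germ-like cells were of different kinds, a division that was made after the clusters had been seen. In F, 19 cells lay in a cluster led by the synaptonemal gene sycp1 and the tektin tekt1, and 39 lay in the dividing cluster. These 39 are called ddx4/piwil1 cells, after genes of early germ cells. The name follows the cluster, and no UMI of ddx4 or piwil1 was required of a cell. The 6 others lay in other clusters and had 486 CPM together, within the range of the somatic classes. Most of these barcodes also held RNA of another class, as given below. All 4 germ-like cells of E belonged to the sycp1/tekt1 cluster. The summed level was 11181 CPM (10572 to 11816) in the sycp1/tekt1 cells of F and 1480 CPM (1388 to 1576) in the ddx4/piwil1 cells of F. Cell by cell, the sycp1/tekt1 cells of F ran between 7079 and 16301 CPM with a median of 10925, those of E between 4890 and 9422, and the ddx4/piwil1 cells between 0 and 8140 with a median of 1526. The ranges of single cells thus overlapped, with the highest ddx4/piwil1 values in cells of under 1000 UMIs, where 5 and 7 member UMIs made up the value.

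Some germ-like barcodes also held RNA of another class. A sycp1/tekt1 barcode of E with 23927 UMIs held 236 UMIs of the tumor list, and a ddx4/piwil1 barcode of F with 60384 UMIs held 6904 UMIs of the exocrine pancreas list. Without the 10 germ-like barcodes that held at least 50 UMIs of another list, the sycp1/tekt1 level was 7409 CPM over 3 cells in E and was the same 11181 CPM in F, and the ddx4/piwil1 level was 1636 CPM over 35 cells. Without these barcodes the level was higher in sycp1/tekt1 cells of E and in ddx4/piwil1 cells, and the same in sycp1/tekt1 cells of F. Of the 6 germ-like cells in other clusters 1 was left, with 11 member UMIs and 1245 CPM.

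The comparison of germ-like cells with the mean of all somatic classes used sample F, because the 4 cells of E fell below the minimum of 5 cells. Its germ-like side is thus 1 sum without a replicate, so that the spread behind each SE and p comes from the somatic classes, and the germ-like sum is assumed to vary as they do. There, 34 of the 47 tested members were higher and 0 were lower, where 18.3% of all 12183 genes were higher and 1.67% lower. At an unadjusted p under 0.05, the share of members that differed was above the share of all genes. The median member lay 3.52 above the median of all genes on the log2 scale, which itself was 0.50. Under DESeq2 the median member lay 3.26 above that of all genes, and 19 members were given no adjusted p. DESeq2 called far fewer members higher in the same sums, and far fewer of all genes as well. With the sycp1/tekt1 cells of F alone 38 of 54 members were higher and 0 lower (14.7% and 10.3% of all genes), and with those of both samples the test called 41 of 54 members higher and 1 lower (15.3% and 12.4% of all genes).

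IFT genes carried the largest part of this level. The 11 IFT-B genes together had 3119 CPM in sycp1/tekt1 cells of E and 6154 CPM in those of F, 394 CPM in ddx4/piwil1 cells, and 67.0 (E) and 82.2 CPM (F) in tumor-like cells. Of the 11 IFT-B genes tested 9 were higher in germ-like cells, as was ift140, the 1 IFT-A gene. ift46, an IFT-B subunit, had 559 CPM in germ-like cells of E and 325 CPM in those of F, against somatic means of 5.76 and 12.3 CPM, a log2 difference of 5.14 ± 0.51 (SE, adjusted p = 8.69e-06, edgeR, from the germ-like cells of F alone, as are the tests that follow). ift57, which joins kinesin-2 to the particle, had 559 CPM (E) and 148 CPM (F) in germ-like cells, against 2.7 and 4.57 CPM in somatic classes, a log2 difference of 5.36 ± 0.53 (adjusted p = 1.26e-05, edgeR).

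ift81, a tubulin-binding IFT-B subunit, had 442 CPM (E) and 119 CPM (F) in germ-like cells, against 1.1 and 3.03 CPM in somatic classes, a log2 difference of 5.25 ± 0.67 (adjusted p = 3.77e-05, edgeR). ift88 and ift80, both of IFT-B, were higher by 5.46 ± 0.98 and 5.56 ± 1.05 on the log2 scale. For each of these 5 IFT-B genes the germ-like level of either sample was above the somatic mean of both samples. Split by kind, ift46 had 1738 CPM in sycp1/tekt1 cells of F and 157 CPM in ddx4/piwil1 cells, ift57 had 1055 and 28 CPM, and ift81 had 896 and 12 CPM. The sycp1/tekt1 cells were the higher kind in all 3.

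**Figure D2:**
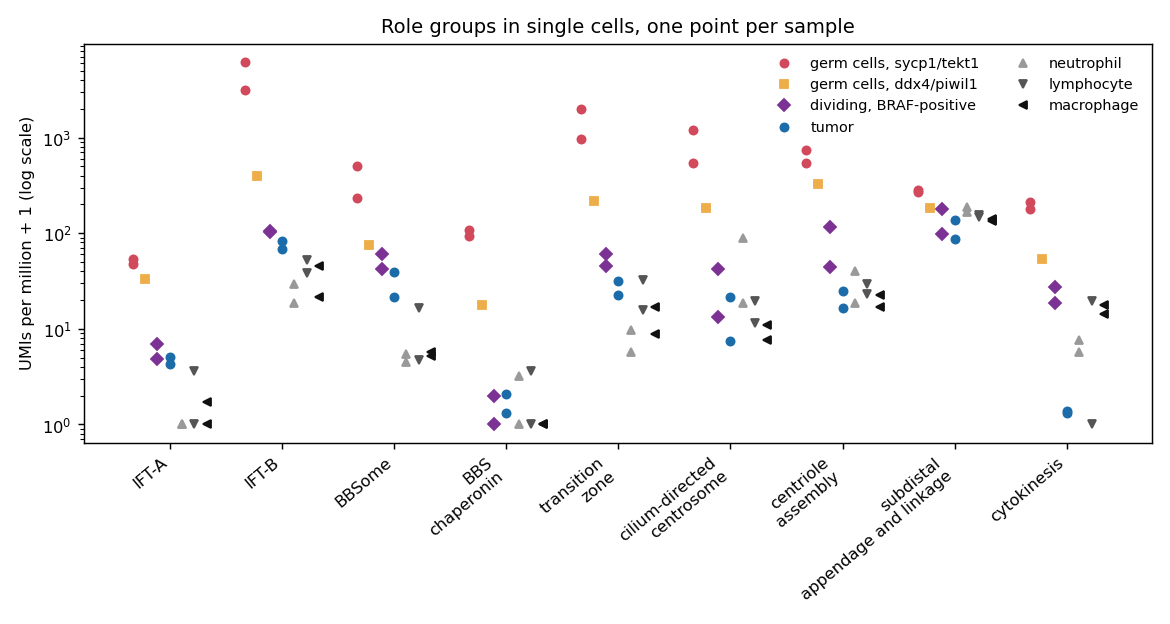
CPM plus 1 (log scale) of each role group in single cells, with 1 point per sample and classes told apart by colour and shape. For IFT-B genes the sycp1/tekt1 germ-like cells lie at 3119 (E) and 6154 CPM (F), tumor-like cells at 67.0 and 82.2 CPM and leukocyte-like classes between 17.7 and 52.0 CPM; for subdistal appendage and linkage genes the same classes lie between 85.1 and 279 CPM.

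Of 4 BBSome genes tested 1 was higher in germ-like cells, where 18.3% of all genes were. It was bbs7, with 210 CPM (E) and 66.4 CPM (F) in germ-like cells, against 2.35 and 2.76 CPM in somatic classes, a log2 difference of 4.93 ± 0.85 (adjusted p = 0.000844, edgeR). Of 10 transition zone genes 7 were higher. tmem218 had 279 CPM (E) and 120 CPM (F) in germ-like cells, against 1.80 and 2.62 CPM in somatic classes, and was higher by 4.65 ± 0.67 on the log2 scale (adjusted p = 7.99e-05, edgeR).

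Centrosome genes were divided. All 5 tested centrosome genes that act on cilia were higher in germ-like cells, among them cep19, which in mammals helps to load IFT particles, with a log2 difference of 4.96 ± 0.80 (adjusted p = 0.000431, edgeR). Of 9 centriole assembly genes 7 were higher, with cep70 at 46.6 CPM (E) and 26.8 CPM (F) in germ-like cells, against 0.354 and 2.06 CPM in somatic classes. Of 5 subdistal appendage and linkage genes 2 were higher, and the median of that group was 0.00 relative to all genes. cep350 had 46.6 (E) and 53.2 CPM (F) in sycp1/tekt1 cells and 86.0 CPM in ddx4/piwil1 cells, against 97.9 to 101 CPM in neutrophil-like cells. The leukocyte-like classes were the highest somatic classes for this gene. Most other somatic classes had less of it than the sycp1/tekt1 cells of the same sample. In both samples these were erythrocyte-like, BRAF-positive dividing and liver-like cells and unnamed clusters 2, 11 and 12. Liver-like cells of F were only just lower. Tumor-like cells had less in E and slightly more in F.

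Not every called member was raised in both kinds of germ-like cells. CEP192, a scaffold of centriole duplication, had 29 UMIs or 44.5 CPM in the ddx4/piwil1 cells and no UMI in sycp1/tekt1 cells, which allows up to 26.6 CPM in those of F and 69.8 CPM in those of E. cep57l1 had 28 UMIs or 43.0 CPM in ddx4/piwil1 cells and likewise no UMI in the sycp1/tekt1 cells. The difference between the kinds was not tested. For ddx4/piwil1 cells alone, 19 of 38 tested members were higher than in somatic classes and 0 were lower (15.8% and 2.68% of all genes).

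**Figure D3:**
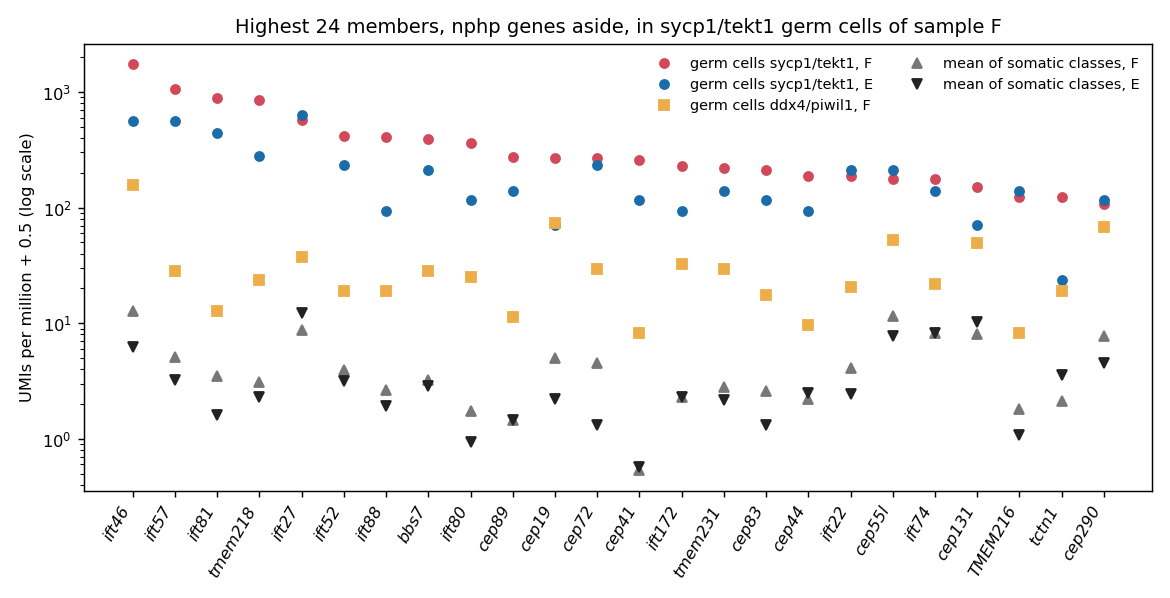
CPM plus 0.5 (log scale) of the 24 members, nphp genes aside, with the highest level in sycp1/tekt1 germ-like cells of F, with the same genes in sycp1/tekt1 cells of E, ddx4/piwil1 cells of F and the mean of the somatic classes. ift46 leads at 1738 CPM in F and 559 CPM in E, against 157 CPM in ddx4/piwil1 cells and somatic means of 12.3 and 5.76 CPM.

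Genes of the same structures that carry other names moved with the members in germ-like cells. Of 9 tested IFT and BBSome subunits with other names 8 were higher, of 8 cilium motor genes 8, and of 16 transition zone and membrane genes 12. In each list 0 genes were lower. They included the kinesin-2 gene kif17 (log2 difference 7.56, adjusted p = 0.00425, edgeR), the dynein-2 gene dync2li1 (6.47, adjusted p = 0.000518) and mks1 of the transition zone (7.35, adjusted p = 0.000555). Of 5 ciliogenesis transcription factors 3 were higher, namely rfx1a, rfx3 and foxj1a, with log2 differences of 3.08, 5.86 and 7.31.

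The dividing cluster was led by globin genes and by cell cycle genes such as cdk1 and aurkb, and no tumor marker was among its 10 leading genes. Its cells with at least 1 BRAF UMI, germ-like cells aside, were compared with tumor-like cells, and had the tumor list at 10539 CPM (E) and 7229 CPM (F), against 11166 and 8362 CPM in tumor-like cells. They had the highest sums among the somatic classes. The members together had 394 CPM (E, 155 cells) and 560 CPM (F, 12 cells) in BRAF-positive dividing cells, against 238 and 320 CPM in tumor-like cells, so the dividing cells were higher in both samples. None of the 47 tested members passed the threshold in either direction (edgeR), where 0.295% of all genes were higher and 0% lower. On simulated data this comparison recovered 2% of 4-fold changes, so differences of that size would mostly go unseen. At an unadjusted p under 0.05 there were 5 members, and 483 of all 12183 genes. DESeq2 called 1 member higher, where 115 of 12183 genes were higher. The gene closest to the threshold was cep55l, with 26.3 CPM (E) and 17.8 CPM (F) in BRAF-positive dividing cells, against 0.333 and 0.398 CPM in tumor-like cells, a log2 difference of 5.58 ± 1.13 relative to the median shift of -0.34 (adjusted p = 0.0718, edgeR).

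cep55l passed the threshold in 7 of 8 alternative settings, the exception being the coarser clustering at resolution 0.4. cep44, cep112, cep152 and cep135, all centrosome genes, were the others with an unadjusted p under 0.05, at log2 differences of 3.21 to 4.06 and adjusted p of 0.575 or more (edgeR). The 11 IFT-B genes had 106 CPM (E) and 101 CPM (F) in BRAF-positive dividing cells, against 67.0 and 82.2 CPM in tumor-like cells, and their median log2 difference was 0.01. The erythrocyte list of markers moved with this class in E, at 3769.6 CPM in BRAF-positive dividing cells against 161 CPM in tumor-like cells. In F they were at 0 and 16.2 CPM. Their part in the result was not tested.

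Tumor-like cells and leukocyte-like cells (neutrophil-, lymphocyte- and macrophage-like classes, weighted equally) were compared next, and IFT and BBSome genes made up most of the members called. The summed level was 238 CPM (E) and 320 CPM (F) in tumor-like cells, against 298 and 237 CPM in leukocyte-like cells, and the order of the classes differed between the samples. Without the cep genes it was 126 CPM (E) and 131 CPM (F) in tumor-like cells, against 67.5 and 35.9 CPM in leukocyte-like cells, and tumor-like cells were higher in both samples. Of 47 tested members 14 were higher in tumor-like cells and 1 was lower, where 16.3% of all genes were higher and 6.89% lower. The median member lay 1.31 above the median of all genes (log2), which was 0.53.

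The 14 higher members were 7 IFT-B genes, ift140, 3 BBSome genes, 2 transition zone genes and cep19, and no gene of centriole assembly or of the subdistal appendages. bbs2, a BBSome subunit, had 28.3 CPM (E) and 9.81 CPM (F) in tumor-like cells, against 2.98 and 0.852 CPM in leukocyte-like cells, a log2 difference of 4.52 ± 0.91 (adjusted p = 0.00141, edgeR). Its gene overlaps nup93 in the RefSeq annotation of assembly GRCz12tu, and strand use in the counting is not given in the sources used here. ift27, a small GTPase of IFT-B, had 29.1 CPM (E) and 19.5 CPM (F) in tumor-like cells, against 3.30 and 3.57 CPM, a log2 difference of 3.19 ± 0.60 (adjusted p = 0.000464, edgeR). For both genes the tumor-like levels of E and F were above the leukocyte-like levels of both samples.

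ift57 had 4.26 CPM (E) and 6.23 CPM (F) in tumor-like cells, against 0.626 and 0.470 CPM in leukocyte-like cells, a log2 difference of 4.49 ± 0.91 (adjusted p = 0.00181, edgeR). ift140, the IFT-A subunit, had 3.33 CPM (E) and 4.11 CPM (F) in tumor-like cells, against 0.866 and 0.235 CPM, a log2 difference of 3.41 ± 1.15 (adjusted p = 0.0252, edgeR). bbs7, tctn1, b9d1, ift22 and bbs5 were also higher, by 2.43 to 3.77 on the log2 scale, with adjusted p of 0.0312 to 0.0498 (edgeR). In leukocyte-like cells of F, bbs7, tctn1 and ift22 had no UMI, which allows up to 1.07 CPM over the classes together. These calls rest on low counts. The count of higher members was 4 under DESeq2, where 1134 of 12183 genes were higher and 14 members had no adjusted p. It was 6 to 8 under 4 other settings, where 1498 to 1596 genes were higher. In the main fit 1980 genes were, so the members' excess over all genes was smaller or absent in these settings. The tumor list was at 11166 CPM (E) and 8362 CPM (F) in tumor-like cells, and between 81.6 and 1925 CPM in the leukocyte-like classes. Its part in the result was not tested.

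cep55l was the 1 member lower in tumor-like cells, with 0.333 CPM (E) and 0.398 CPM (F), against 6.59 and 13.4 CPM in leukocyte-like cells, a log2 difference of -4.51 ± 1.03 (adjusted p = 0.0114, edgeR). The dividing list was higher beside it in leukocyte-like classes, at 279 CPM (E) and 465 CPM (F) in macrophage-like cells. Its part in the result was not tested. Of the genes with other names, 4 of 9 IFT and BBSome genes, 2 of 8 motors, 4 of 16 transition zone and membrane genes and 0 of 5 transcription factors were higher in tumor-like cells, and none was lower.

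Among the other cell classes the sum was low in erythrocyte-like cells, at 77 CPM (E) and 109 CPM (F), and between 140 and 277 CPM in liver-like cells and in 4 unnamed clusters. cep131, a gene of centriolar satellites, was distributed unevenly, with 83.8 CPM in neutrophil-like cells of E and 15.3 CPM in those of F, while tumor-like cells had 2.00 and 8.61 CPM. Subclusters of tumor-like cells ran between 182 and 324 CPM in E and between 314 and 343 CPM in F. The subclusters of F lay closer together than those of E.

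**Figure D4:**
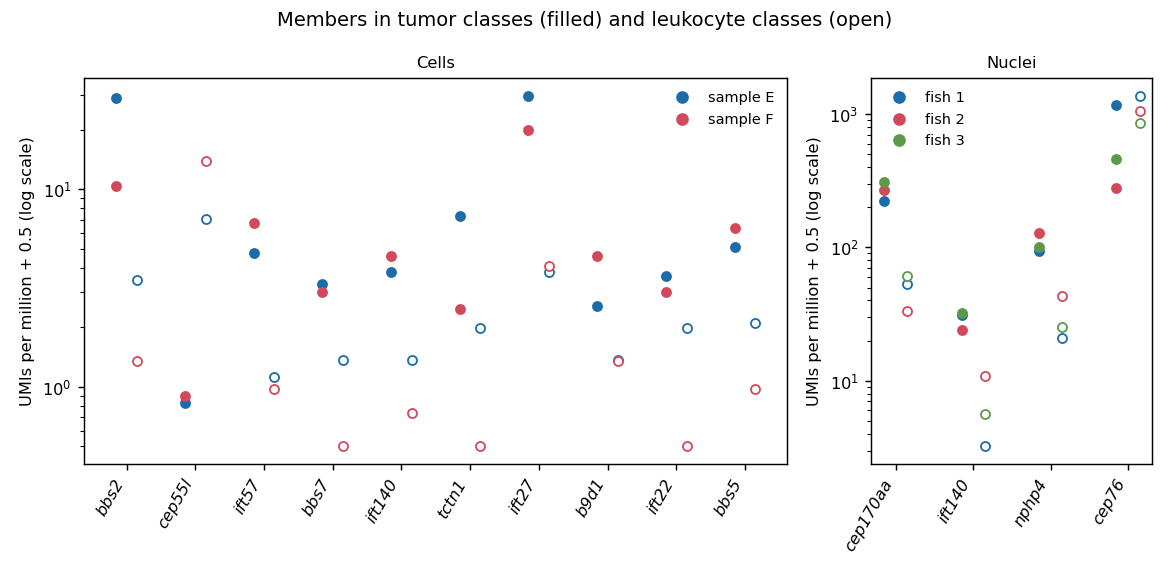
CPM plus 0.5 (log scale) of the members named in the comparison of tumor-like (filled, left of each pair) with leukocyte-like classes (open, right), for single cells and for nuclei, with cep76 added for nuclei; each colour is 1 sample or fish. bbs2 lies at 28.3 and 9.81 CPM in tumor-like cells against 2.98 and 0.852 CPM, and cep170aa at 223 to 308 CPM in tumor-like nuclei against 32.7 to 60.7 CPM.

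In the nuclei the level of free RNA was read from near-empty barcodes. Barcodes with 10 to 100 UMIs had the members at 858 CPM (812 to 905), of which cep76 made up 147 CPM. Sums of endothelial-like nuclei (1051, 899 and 923 CPM in fish 1, 2 and 3) lay near this level, and those of exocrine pancreas-like (296 to 395 CPM) and liver-like nuclei (232 to 465 CPM) below it. The highest sums were in macrophage-like nuclei, at 3635, 3068 and 2700 CPM. Tumor-like nuclei had 2647, 1658 and 2092 CPM and intestine-like nuclei 1874, 1770 and 2145 CPM.

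This order was largely that of cep76. Its level was 2657, 2049 and 1628 CPM in macrophage-like nuclei, 1431, 1188 and 1611 CPM in intestine-like nuclei, 1171, 280 and 461 CPM in tumor-like nuclei, and 550, 321 and 254 CPM in keratinocyte-like nuclei of fish 1, 2 and 3. In fibroblast-, nervous system-, endothelial-, lymphocyte-, muscle-, liver- and oocyte-like nuclei it was at 192 CPM or less, where the background had 147 CPM. Its levels in endothelial-, liver- and oocyte-like nuclei were well below that background. Without cep76 macrophage-like nuclei had 978, 1018 and 1072 CPM and tumor-like nuclei 1476, 1378 and 1631 CPM, so that the tumor-like nuclei were then higher in every fish. In the somatic single cells cep76 had 16 UMIs in all, a level of 0.344 CPM, against 476 CPM in somatic nuclei. Macrophage-like cells of E and F had no cep76 UMI among 1064492 and 1418691 UMIs.

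**Figure D5:**
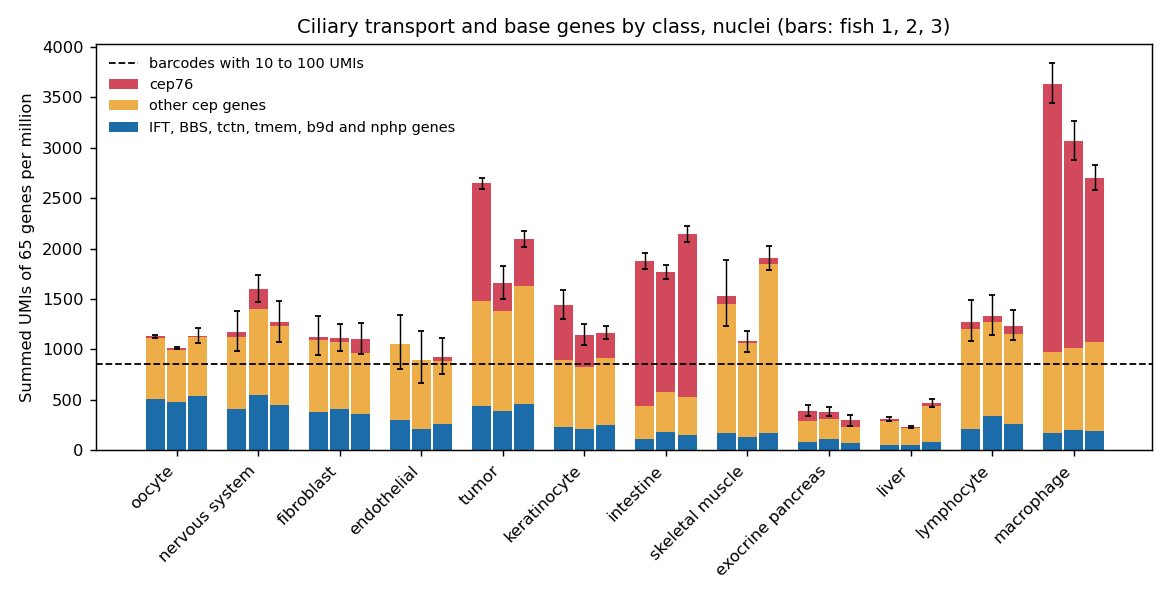
Summed CPM of the 65 genes by class of nuclei, stacked as cep76, other cep genes and all other members, with 1 bar per fish (1, 2, 3 from left to right), the 95% exact Poisson interval of the sum, and the level of barcodes with 10 to 100 UMIs as a dashed line at 858 CPM. Macrophage-like nuclei reach 2700 to 3635 CPM with cep76 and 978 to 1072 CPM without it.

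Muscle-like nuclei owed their sum to other genes. cep85l had 482, 429 and 937 CPM and cep85 had 413, 196 and 270 CPM in skeletal muscle-like nuclei of fish 1, 2 and 3, while in tumor-like nuclei they had 151, 117 and 233 CPM and 9.66, 19.5 and 10.98 CPM. In the RefSeq annotation of GRCz12tu cep85l overlaps pln1, and cep85 overlaps ubxn11 and mtdhb. How reads over such overlaps were counted is not given in the sources used here, so these levels are uncertain.

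Classes of types known to carry a primary cilium (fibroblast-, endothelial- and nervous system-like nuclei, weighted equally) were compared with lymphocyte- and macrophage-like nuclei. The sums were 1114, 1203 and 1097 CPM in the ciliated types of fish 1, 2 and 3, against 2456, 2200 and 1968 CPM in leukocyte-like nuclei, and were lower in every fish. Without the cep genes they were 364, 391 and 359 CPM, against 190, 273 and 224 CPM, and were higher in every fish. Single classes overlapped in fish 2, where lymphocyte-like nuclei had 340 CPM and endothelial-like nuclei 208 CPM. Of 33 tested members 2 were higher and 5 lower in the ciliated types, where 11.8% of all genes were higher and 13% lower, and the median of all genes was -0.15. The nervous system list was at 293 CPM in the nervous system-like nuclei of fish 2, against 2757 and 4214 CPM in fish 1 and 3. Without fish 2, 1 member was higher and 5 were lower. With nuclei of at least 1000 UMIs only, no fibroblast-, endothelial- or lymphocyte-like cluster was named, so that nervous system-like were set against macrophage-like nuclei, and 7 members were higher and 2 lower.

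All 7 members called were cep genes. cep170b, of subdistal appendages, had 33.4, 37.5 and 35.3 CPM in the ciliated types, against 5.45, 3.11 and 7.51 CPM in leukocyte-like nuclei, a log2 difference of 2.96 ± 0.49 (adjusted p = 1.86e-05, edgeR). cep89, of distal appendages, was higher by 1.85 ± 0.60 (adjusted p = 0.0317, edgeR), and lost the call when any fish was left out (adjusted p = 0.0757 to 0.351). The leukocyte-like level of cep170b lay below its level of 9.16 CPM in the background barcodes, and the part of free RNA in it was not tested. cep76 had 25.0, 76.2 and 68.9 CPM in the ciliated types, against 1365, 1057 and 854 CPM, a log2 difference of -2.86 ± 0.49 (adjusted p = 4.99e-06, edgeR). The group means of cep170b and cep76 did not overlap. The high leukocyte-like mean of cep76 came from macrophage-like nuclei, whereas lymphocyte-like nuclei lay within the range of the ciliated classes over all fish.

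cep135, of the cartwheel from which centrioles form, had 0, 7.97 and 11.6 CPM in the ciliated types, where no UMI in fish 1 allows up to 10.0 CPM, against 33.9, 23.8 and 22.3 CPM in leukocyte-like nuclei. Its log2 difference was -3.18 ± 0.83 (adjusted p = 0.00201, edgeR), and -0.65 with nuclei of at least 1000 UMIs (adjusted p = 0.577). cep85l and cep350 were lower by smaller amounts, at -1.36 ± 0.31 and -0.87 ± 0.26 on the log2 scale (adjusted p = 0.000176 and 0.00229, edgeR), and cep152 was the fifth. No IFT, BBSome or transition zone gene passed the threshold among the 14 tested. Of those with other names 1 of 7 IFT and BBSome genes, 3 of 5 motors and 4 of 12 transition zone and membrane genes were higher, and none was lower.

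In tumor-like nuclei 6 of 33 tested members were higher than in leukocyte-like nuclei and 0 were lower, where 14.9% of all genes were higher and 9.2% lower and the median of all genes was 0.21. cep170aa, a gene of subdistal appendages, had 223, 268 and 308 CPM in tumor-like nuclei of fish 1, 2 and 3, against 53.0, 32.7 and 60.7 CPM in leukocyte-like nuclei, a log2 difference of 2.56 ± 0.51 (adjusted p = 4.3e-05, edgeR). It overlaps the dynein-2 gene dync2li1 in the RefSeq annotation. nphp4, of the transition zone, had 93.0, 128 and 101 CPM, against 20.4, 42.5 and 24.6 CPM, a log2 difference of 1.84 ± 0.41 (adjusted p = 0.000134, edgeR). Neither gene overlapped between the groups. The leukocyte-like level of nphp4 was near its 23.6 CPM in the background barcodes. The tumor list was at 4192, 4654 and 4595 CPM in tumor-like nuclei, against 867, 424 and 559 CPM in macrophage-like and 797, 145 and 600 CPM in lymphocyte-like nuclei, and its part in the result was not tested.

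ift140 had 30.8, 23.3 and 31.5 CPM in tumor-like nuclei, against 2.73, 10.4 and 5.17 CPM in leukocyte-like nuclei, a log2 difference of 2.34 ± 0.55 (adjusted p = 0.000331, edgeR). Its leukocyte-like levels were below the 11.8 CPM of the background barcodes. It was the 1 gene called higher in tumor-like cells and in tumor-like nuclei alike. Of the 14 members called in cells 3 were in the nuclear fit, and of the 6 called in nuclei 5 were in the cell fit. Of the 26 members in both fits 13 lay above the median of all genes in both. Among genes with other names, 2 of 7 IFT and BBSome genes, 3 of 5 motors, 3 of 12 transition zone and membrane genes and 0 of 5 transcription factors were higher in tumor-like nuclei. Without fish 1, 2 members were higher, and ift140 had an adjusted p of 0.0549 (edgeR).

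Oocyte-like nuclei were set apart as the germ line of the nuclear library. Each of their clusters had all 13 genes of the oocyte list, which named them, raised at least 2-fold. Oocyte-like nuclei were far deeper than other nuclei, with median UMIs of 72805, 82786.5 and 38098 in fish 1, 2 and 3 (129, 324 and 16 nuclei). They made up 4.86% of the nuclei with 1 hashtag, 59.3% of the UMIs and 55.7% of the members' UMIs, so the members took no larger share there than elsewhere. The sum was 1129, 1013 and 1138 CPM in oocyte-like nuclei, against somatic means of 1409, 1243 and 1357 CPM, and was lower in every fish. Without the cep genes it was 504, 483 and 538 CPM, against 244, 264 and 278 CPM, and was higher than the somatic mean in every fish. Single somatic classes reached it: nervous system-like nuclei of fish 2 had 553 CPM and unnamed cluster 3 in fish 3 had 541 CPM. In all other cases the somatic class lay below the oocyte-like nuclei of its fish.

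The oocyte comparison used fish 1 and 2, since fish 3 had fewer than 20 oocyte-like nuclei. Of 33 tested members 17 were higher and 8 lower, where 40.5% of all genes were higher and 25.9% lower and the median of all genes was -0.19. On simulated data, 52 of 212 calls in this comparison were false. ift27 led, with 138, 143 and 183 CPM in oocyte-like nuclei of fish 1, 2 and 3, against 8.33, 15.1 and 8.02 CPM in somatic classes, a log2 difference of 5.52 ± 0.29 (adjusted p = 6.19e-20, edgeR). Oocyte-like nuclei held 95.1% of all nuclear UMIs of ift27. Its somatic levels lay below its 32.1 CPM in the background barcodes, and the part of free RNA in them was not tested. The groups did not overlap in any fish.

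Transition zone genes followed. tmem231 had 51.7, 52.7 and 51.2 CPM in oocyte-like nuclei, against 5.52, 6.53 and 7.68 CPM, a log2 difference of 4.75 ± 0.39 (adjusted p = 5.97e-14, edgeR). b9d2 had 39.2, 39.4 and 37.8 CPM, against 6.87, 5.51 and 4.66 CPM, a log2 difference of 4.24 ± 0.41 (adjusted p = 7.72e-12, edgeR). tctn2, of the tectonic proteins, was higher by 3.16 ± 0.49. The levels of tmem231 and b9d2 were nearly equal in the 3 fish. Their somatic levels, and those of cep57l1, were below the background barcodes, which had 17.0, 13.1 and 24.9 CPM of tmem231, b9d2 and cep57l1.

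Of 8 centriole assembly genes 7 were higher and 1, cep76, was lower, where 40.5% of all genes were higher and 25.9% lower. By mean CPM, cep85, cep135 and CEP192 among the 7 did not differ in the same direction in every fish. cep57l1 had 65.3, 71.4 and 69.5 CPM in oocyte-like nuclei, against 7.49, 8.49 and 4.01 CPM, a log2 difference of 4.90 ± 0.36 (adjusted p = 9.55e-16, edgeR). cep97, which with CP110 caps centrioles in human cells, was higher by 3.88 ± 0.37 and cep152 by 3.13 ± 0.43 (both edgeR, adjusted p of 6.73e-08 or less). The cytokinesis gene cep55l was higher by 2.68 ± 0.34 (edgeR, adjusted p under 6.73e-08). Of 6 subdistal appendage and linkage genes 1 was higher and 3 were lower.

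bbs9, the single BBSome gene tested, was lower, with 1.6, 1.44 and 1.22 CPM in oocyte-like nuclei, against 22.9, 25.0 and 31.5 CPM, a log2 difference of -2.63 ± 0.48 (adjusted p = 1.48e-06, edgeR). With nuclei of at least 1000 UMIs only, 2 members were lower, and bbs9 was not among them (adjusted p = 1.0, edgeR). Of the genes with other names, 2 of 7 IFT and BBSome genes, 3 of 5 motors and 5 of 12 transition zone and membrane genes were higher in oocyte-like nuclei, and 1, 0 and 1 were lower, where 40.5% of all genes were higher and 25.9% lower.

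ift27 was thus among the members called higher in both kinds of germ line. ift27 was higher in germ-like cells by 3.27 ± 0.64 on the log2 scale (adjusted p = 0.000704, edgeR) and in oocyte-like nuclei by 5.52. ift57 and ift46 were not alike in this: both were called in germ-like cells, ift57 had 14.3, 17.1 and 23.2 CPM in oocyte-like nuclei, and neither passed the filter on low counts in the nuclear fit.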

How the data were processed

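Single cells of samples E and F and nuclei of 3 hashtagged fish were measured by droplet sequencing of transcript 3' ends. The tables the authors deposited hold unnormalized UMI counts, made with Cell Ranger (3.1.0 in the file headers and 5.0.1 in the processing notes) on a zebrafish build with human BRAF and EGFP added. How reads over overlapping genes were counted is not given in the sources used here.

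Cells needed 200 genes and at most 20% mitochondrial UMIs, and nuclei at least 500 UMIs. Seurat 5.3.0 with sctransform 0.4.2 in R 4.3.3 clustered them (3000 features, 15 components, resolution 0.8), and clusters were named from marker lists. Nuclei with more than 1 hashtag were removed as doublets. Scrublet (scanpy 1.11.5) called 2 cells of E, 3 of F and 0 nuclei, and so did not work for the nuclei. Classes needed 5 cells or 20 nuclei in a sample. Counts were summed per class and sample and tested with edgeR 4.0.16 (quasi-likelihood, adjusted p under 0.05), classes weighted equally, with DESeq2 1.42.0 as an alternative. Printed group levels are arithmetic means of class CPM, whereas fold changes average logs. A count of 0 was taken to allow up to 3 counts.

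The text names, for each comparison, up to 10 called members with the largest change, at least 50 UMIs and the same direction in every sample, for each role up to 3 members with the most UMIs, and some others chosen after their values were seen. Some members that this rule names are not reported here, though sums and counts include them. Members and lists were chosen with earlier results of these data known. On simulated data at these depths, 16-fold changes were recovered for 51% of genes in the germ cell comparison, 59% for BRAF-positive dividing cells, 69% for tumor cells, 84% for ciliated types, 77% for tumor nuclei and 85% for oocytes. Classes of the same cell sample, and of the same fish among the nuclei, were prepared together, which pairs them. Deviations of classes of the same sample had a median correlation of 0.16 in cells (0.06 to 0.69 over 110 pairs). Those of classes of the same fish had 0.08 in nuclei (-0.02 to 0.41 over 234 pairs). Alternatives were no filter, a block for the sample (cells) or fish (nuclei), DESeq2, other resolutions, members kept for clustering, other cell filters and leaving out each sample or fish.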

Additional observations from a re-analysis of the deposited data

Results flagged for a closer look

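Some samples of a class entered no main comparison. The 4 germ-like cells of sample E, too few for it and used only in an alternative fit, had 6006 CPM of the members, against a somatic mean of 229 CPM in the same sample. The 16 oocyte-like nuclei of fish 3, too few for the fit, had 1138 CPM, against a somatic mean of 1357 CPM and 858 CPM in barcodes of 10 to 100 UMIs.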

How the results depend on the processing

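Members higher in germ-like cells numbered 34, and 5 under DESeq2, which gave 19 members no adjusted p, and 19 with ddx4/piwil1 cells alone; 1 was lower with sycp1/tekt1 cells of both samples. Under DESeq2 far fewer of all genes were higher in germ-like cells as well. For BRAF-positive dividing cells the count was 1 in place of 0 with no filter, the sample block, DESeq2, resolution 1.6, members kept for clustering, log-normalization or at most 10% mitochondrial UMIs. In these settings 86 to 165 of all genes were higher, against 36 in the main fit. In tumor-like cells 14 higher members became 4 under DESeq2 (2 lower), 8 at resolution 0.4, 6 at resolution 1.6, 7 with members kept for clustering and 8 at 10% mitochondrial UMIs. The genes called higher in all were 1980 in the main fit, and 1134, 1546, 1498, 1533 and 1596 in these settings in the same order. In ciliated types the higher count was 1 without the filter, 4 under DESeq2, 1 whichever fish was left out and 7 with at least 1000 UMIs, where nervous system- and macrophage-like nuclei alone were named, and the lower count was 3 to 5 without 1 fish and 2 with at least 1000 UMIs. In tumor-like nuclei it was 3 under DESeq2 and 2 to 5 without 1 fish. In oocyte-like nuclei 45 of 65 members were higher with no filter, where 9327 of 27446 genes were. The lower count was 5 without fish 3, 4 at resolution 1.6, 2 with at least 1000 UMIs and 5 without the highest 5% of doublet scores. It also fell without fish 1 or fish 2, fits that leave 1 oocyte-like sum.

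With the sample as a replicate block, 37 members were higher in germ-like cells, and 18 were higher and 1 lower in tumor-like cells. With fish as the block, 3 were higher and 5 lower in ciliated types, 7 higher in tumor-like nuclei, and 18 higher and 8 lower in oocyte-like nuclei. The block ended no call of a named member, and cep55l passed in BRAF-positive dividing cells.

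Ratios of sums moved when cep genes were left out: germ-like over somatic cells of F from 9.21 to 16.9 (11.3 without the top member), tumor-like over leukocyte-like cells from 1.07 to 2.76 (0.797 to 1.35 without 1 sample), ciliated types over leukocyte-like nuclei from 0.519 to 1.65, the opposite direction (0.969 without the top member), and tumor-like over leukocyte-like nuclei from 0.965 to 1.94 (1.34 without the top member). The cause was not tested. Of named members' values under the alternatives, 371 kept their call, 41 lost it and 0 reversed. Leaving out either cell sample left no test, and the promoter motif search was not run. Few cells limit the germ-like comparison (64 cells of F) and that of BRAF-positive dividing cells (12 in F).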

Other observations

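Tumor-like nuclei had been sorted by GFP. Their summed level was 2057 CPM in GFP+ nuclei against 3215 CPM in GFP- nuclei of fish 1, 1351 against 1920 CPM in fish 2 and 1980 against 2136 CPM in fish 3, lower in GFP+ nuclei of each fish. Without the cep genes it was 355 against 523 CPM, 329 against 448 CPM and 443 against 471 CPM. The difference was not tested.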
